A study of Homo sapiens with 5 samples.

Results

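The 10 genes described here code for the kinases ATM and ATR, their partner and mediator proteins and the checkpoint kinases CHEK1 and CHEK2. They were chosen by gene symbol, and each of the 10 symbols matched 1 of the 26485 genes in the count table. Their mRNA was measured by RNA-seq in wild-type RPE1, an established human line derived from the retinal pigment epithelium. The 5 libraries comprised 2 from cultures given DMSO, 2 from cultures given doxorubicin at 0.2 μM and 1 at 0.34 μM, and every culture was incubated for 18 h. The concentrations follow the treatment field of each sample, whereas the description of the treatment in the labels has 200 and 340 μM. Doxorubicin is an anthracycline that traps type II topoisomerases on DNA and leads to double-strand breaks. The 3 doxorubicin libraries were compared with DMSO as 1 group.

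ATM and ATR are large protein kinases at the top of the DNA damage checkpoint. ATM is activated at double-strand breaks, where MDC1 binds phosphorylated histone H2AX and holds ATM on the chromatin, and it phosphorylates the kinase CHEK2. ATR is brought to single-stranded DNA by its partner ATRIP. There the ring-shaped clamp formed by RAD9A, RAD1 and HUS1 recruits TOPBP1, which switches ATR on, and CLSPN (claspin) presents CHEK1 to ATR for phosphorylation. The checkpoint acts mainly through phosphorylation, which mRNA levels do not measure.

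The libraries held between 23773061 and 36725345 counts on genes. The retinal pigment epithelium markers MITF and OTX2 were present in each library, at 29.1 to 56.7 and at 23.5 to 29.4 CPM (counts scaled to the library size with edgeR's TMM factors). RPE65, RLBP1, TYR and TTR, markers of the mature tissue, had between 0 and 8 counts in any library. The other markers in this list, LRAT and SERPINF1, had at most 25 and 29 counts, PMEL 5 to 46 and BEST1 14 to 142. PMEL and BEST1 were higher in every doxorubicin library (log2 fold changes 2.29 and 1.88). Neither passed an adjusted p of 0.01 (edgeR, adjusted p = 0.0264 and 0.0823). Among 5 markers of blood and endothelium, HBB had 0 counts in every library, PECAM1 and VWF had at most 13 and 24, and CD68 lay between 76.5 and 108 CPM. PTPRC had 5 to 72 counts and was 7.28 times higher in doxorubicin without passing the threshold of 0.01 (edgeR, adjusted p = 0.0212). The summed level of these 5 markers, nearly all of it from CD68, was 91.7 to 100.8 CPM in DMSO and 79.5 to 111 in doxorubicin. The part of these markers in the results was not tested. Between doxorubicin and DMSO, 0 markers passed an adjusted p of 0.01 in edgeR, with 5 of the retinal pigment epithelium, 3 of the epithelium, 5 of the mesenchyme and 3 of the blood and endothelium lists tested. In bulk RNA, fewer cells of a type and less RNA per cell cannot be told apart.

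After doxorubicin, 5 of the 10 genes fell and 0 rose at an adjusted p of 0.01 (edgeR's quasi-likelihood test over 14187 genes, with Benjamini-Hochberg adjustment). Among all genes tested, 2.73% fell and 1.29% rose. The 5 genes that fell were the mediators CLSPN, TOPBP1 and MDC1 and the kinases CHEK1 and CHEK2. ATM, ATR, ATRIP and HUS1 overlapped between the groups, and RAD9A was lower in every doxorubicin library without passing the threshold. With RAD9A, 6 of the 10 genes lay lower in all doxorubicin libraries than in both DMSO libraries, compared with 23.4% of all genes tested. The median log2 fold change (doxorubicin over DMSO) was -1.15 over the 10 genes and 0.013 over all genes tested. In the plot of levels by library, the 5 genes that fell stand on the right together with a wide gap between grey and coloured points.

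**Figure D1:**
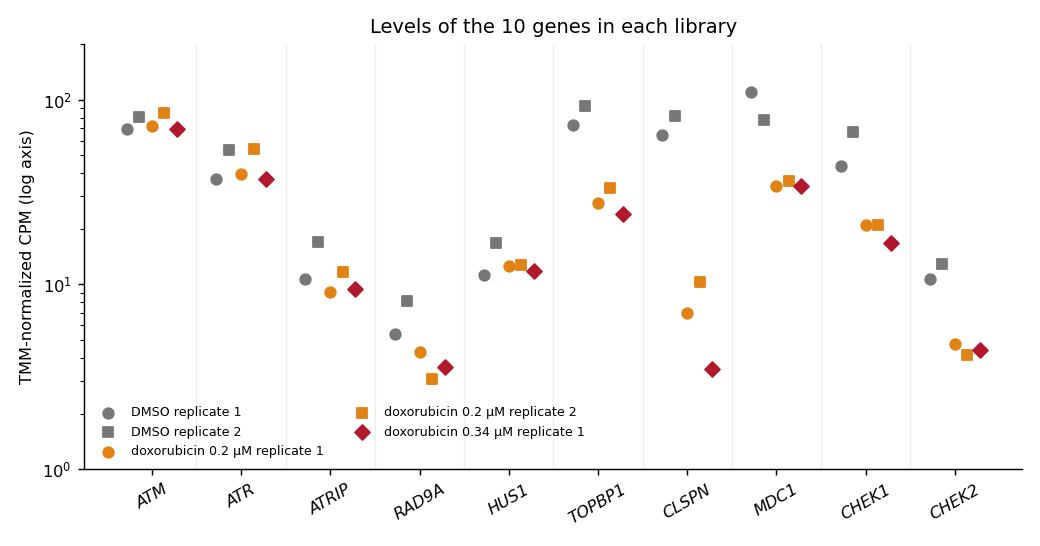
TMM-normalized CPM on a log axis for each of the 10 genes (x axis) in each of the 5 libraries (points; grey for DMSO, orange for 0.2 μM and red for 0.34 μM doxorubicin). ATM and ATR stay within the range of the DMSO libraries or just beside it, whereas CLSPN drops from 64.2 and 81.1 CPM in DMSO to between 3.50 and 10.3.

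The calls depended on each library. Without DMSO replicate 1, DMSO replicate 2 or either replicate of 0.2 μM doxorubicin, 0 of the 10 genes passed the threshold, and without the 0.34 μM library only CLSPN did. In the same fits between 0.335% and 1.48% of all genes tested passed. The log2 fold changes of the 5 genes stayed negative in 70 of 70 cases (5 genes under 14 alternative settings each), and none moved by more than 1.5 times. Many of these cases could hardly have turned the sign, so their number is no test of the direction. Each of the 5 genes lay lower in every doxorubicin library than in both DMSO libraries, which leaving out a library or dose cannot change. A change of the threshold alone leaves the fold changes as they are.

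ATM (chr11:108223067-108369102, plus strand, GRCh38.p14 as all positions here), the kinase of the double-strand break response, had 69.8 and 80.3 CPM in DMSO, 72.2 and 84.2 at 0.2 μM and 69.1 at 0.34 μM doxorubicin. The mean was 75.03 ± 7.44 CPM (SD, n = 2) in DMSO and 75.2 ± 7.98 (SD, n = 3) in doxorubicin, so that the difference was far smaller than the spread between libraries. Its log2 fold change was 0.0028 ± 0.16 (SE; edgeR, adjusted p = 0.993), and the 95% interval of the fold ran from 0.774 to 1.30.

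ATR (chr3:142449235-142578733, minus strand), the kinase of the response to single-stranded DNA and stalled forks, had 37.1 and 53.3 CPM in DMSO, 39.7 and 53.7 at 0.2 μM and 37.4 at 0.34 μM. The groups overlapped over nearly their whole range. Its log2 fold change was -0.05 ± 0.24 (SE; edgeR, adjusted p = 0.906), with an interval of the fold from 0.654 to 1.42. The sign of this value and that of ATM changed between settings.

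ATRIP (chr3:48446737-48467645, plus strand), which binds ATR and carries it to single-stranded DNA coated with replication protein A, had 10.7 and 17.0 CPM in DMSO, 9.09 and 11.7 at 0.2 μM and 9.42 at 0.34 μM. The highest doxorubicin library lay above the lower DMSO library. Its log2 fold change was -0.46 ± 0.26 (SE; edgeR, adjusted p = 0.285), and the interval of the fold, 0.474 to 1.12, includes both no change and a fall by more than a factor of 2. Leaving out DMSO replicate 1 moved the log2 fold change to -0.76, and leaving out replicate 2 moved it to -0.11. Reads of ATRIP are uncertain, because TREX1 (log2 fold change -0.35, adjusted p = 0.54 from edgeR) and the annotated readthrough gene ATRIP-TREX1 overlap it and whether the counting used strand is not stated in the methods or labels.

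Of the clamp subunits, RAD9A (chr11:67391986-67398412, plus strand) had 5.42 and 8.15 CPM in DMSO, 4.29 and 3.08 at 0.2 μM and 3.58 at 0.34 μM, from 74 to 208 counts per library. The groups did not overlap, but the DMSO libraries differed by 0.58 on the log2 scale, and its log2 fold change of -0.89 ± 0.29 (SE) had an adjusted p of 0.0894 from edgeR. Without DMSO replicate 2 the log2 fold change was -0.59. RAD9A overlaps PPP1CA, a phosphatase gene with 146 CPM in DMSO, so that its low count is uncertain. HUS1 (chr7:47963288-47979615), the second subunit, had 11.2 and 16.8 CPM in DMSO and between 11.8 and 12.7 in doxorubicin, a range that lay within that of the DMSO libraries. Its log2 fold change was -0.18 ± 0.23 (SE; edgeR, adjusted p = 0.64).

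CLSPN (chr1:35720213-35769978, minus strand) showed the largest change of the 10 genes. It had 1684 and 2071 counts in DMSO (64.2 and 81.1 CPM), 181 and 247 counts at 0.2 μM (6.999 and 10.3 CPM) and 127 counts at 0.34 μM (3.50 CPM). The lowest DMSO library was thus far above the highest doxorubicin library. The level was 10.6 times lower in doxorubicin (log2 fold change -3.40 ± 0.41 SE, edgeR, adjusted p = 0.00431). The 95% interval of the fold ran from 0.0479 to 0.187. Ranked by log2 fold change, CLSPN was number 73 from the bottom of the 14187 genes tested. CLSPN overlaps its antisense transcript CLSPN-AS1, which has no row in the count table, and the strand setting of the counting is not given.

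TOPBP1 (chr3:133600238-133661941, minus strand), the activator of ATR, had 73.1 and 92.5 CPM in DMSO, 27.7 and 33.3 at 0.2 μM and 24.2 at 0.34 μM. Each doxorubicin library was well below both DMSO libraries. TOPBP1 was 2.92 times lower (log2 fold change -1.55 ± 0.19 SE, edgeR, adjusted p = 0.005), with an interval of the fold from 0.249 to 0.472.

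The promoters of the genes were searched for motifs known from cell cycle genes, in windows of 250 bases before to 50 bases after the gene start (RefSeq, GRCh38.p14). A window was found for 9 of the 10 genes, and none for HUS1. The windows of CHEK1 lie inside the annotated gene, the first at chr11:125625979-125626278. The sequence at its annotated start, 125625136, was therefore not searched. The motifs, on both strands, were E2F words (TTTCCCGC, TTTCGCGC, TTTGCCGC or TTTGGCGC), the cell cycle homology region or CHR (TTTGAA or TTCGAA) and the CCAAT box (CCAAT). Of these, the last CHR word reads the same on both strands, and some E2F words can overlap one another on opposite strands. E2F words were found in the first listed windows of CLSPN and TOPBP1, not in those of CHEK1, CHEK2 and MDC1, the other genes that fell, and in 3.33% of 27305 windows. A CHR was found in MDC1 and in ATM, and in 16.6% of all windows. A CCAAT box was found in 7 of the 9 genes and in 35.7% of all windows, with 3 copies each in CLSPN and CHEK2 and none in ATR and TOPBP1. Of the 321 windows of genes that fell, 15.9% held an E2F word, 36.1% a CHR and 54.8% a CCAAT box, compared with 5.27%, 11.2% and 36.5% of the 10362 windows of genes tested. A match is a description of the letters and not of binding.

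The sequences just before the starts of CLSPN (chr1:35769976-35770098, minus strand), TOPBP1 (chr3:133661941-133662061, minus strand) and ATR (chr3:142578734-142578853, minus strand) are printed to show the position of the E2F word in both genes that hold one, beside the promoter of a gene without a match. CHEK1, CHEK2 and MDC1 fell and hold no match in their windows either. Capitals mark the E2F word, read here on the opposite strand, which in CLSPN and TOPBP1 lies across the gene start.
CLSPN: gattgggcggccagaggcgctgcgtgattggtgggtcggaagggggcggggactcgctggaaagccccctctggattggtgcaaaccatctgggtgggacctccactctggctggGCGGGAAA
TOPBP1: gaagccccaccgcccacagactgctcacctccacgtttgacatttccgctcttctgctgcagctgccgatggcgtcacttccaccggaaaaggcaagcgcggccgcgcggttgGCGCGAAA
ATR: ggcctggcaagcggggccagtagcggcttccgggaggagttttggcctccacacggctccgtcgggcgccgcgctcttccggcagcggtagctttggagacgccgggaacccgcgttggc

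MDC1 (chr6:30699807-30717281, minus strand), the mediator of the ATM branch, had 110.6 and 77.1 CPM in DMSO, 34.2 and 36.5 at 0.2 μM and 34.3 at 0.34 μM. The 3 doxorubicin libraries were nearly alike, while the DMSO libraries differed by 0.52 on the log2 scale, with replicate 1 the higher. The log2 fold change was -1.42 ± 0.18 (SE; edgeR, adjusted p = 0.00544). MDC1 overlaps its antisense transcript MDC1-AS1 and lies in the major histocompatibility region, for which hg38 holds alternative haplotype copies. The methods and labels do not state how reads shared between copies were counted.

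CHEK1 (chr11:125625136-125681124, plus strand), which is phosphorylated by ATR and inhibits CDC25 phosphatases, had 43.9 and 66.6 CPM in DMSO, 21.0 in both 0.2 μM libraries and 16.8 at 0.34 μM. The groups were separated by more than the gap between the DMSO libraries. CHEK1 was 2.82 times lower (log2 fold change -1.50 ± 0.22 SE, edgeR, adjusted p = 0.00882). CHEK2 (chr22:28687742-28741834, minus strand), the corresponding kinase of the ATM branch, had 10.7 and 12.9 CPM in DMSO and 4.76, 4.16 and 4.44 CPM in doxorubicin, the last at 0.34 μM. Its log2 fold change was -1.41 ± 0.21 (SE; edgeR, adjusted p = 0.00964), close to that of CHEK1. Both calls lay near the threshold in edgeR. CHEK1 missed it with limma voom (adjusted p = 0.0109), and both missed it when counts were scaled by library size alone. Both also missed it for 0.2 μM alone against DMSO (edgeR, adjusted p = 0.0425 and 0.069). With DESeq2, which called 2026 of all genes, both passed (DESeq2, adjusted p = 2.77e-07 for CHEK1 and 1.05e-06 for CHEK2). CHEK2 has partial pseudogene copies in the genome, and 1 pseudogene row, CHEK2P2, had 0 counts in every library, and the other copies were not analysed here.

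The DMSO libraries differed in a direction shared by most of the 10 genes. DMSO replicate 2 was higher than replicate 1 for 9 of the 10, with a median of 0.43 on the log2 scale, whereas it was higher for 50.5% of all genes tested. MDC1 was the exception. In a list of 20 genes for the G1/S transition and replication, replicate 2 exceeded replicate 1 by a median of 0.95 on the log2 scale. After doxorubicin, 14 of the 20 fell (median log2 fold change -2.51). In this list 1 gene, PCNA, was above 0 (log2 fold change 1.01, edgeR, adjusted p = 0.117). All 15 genes in a list for G2 and mitosis fell (median -3.59), and there the median gap between the DMSO replicates was 0.30. In comparison, 2.73% of all genes tested fell, and their median log2 fold change was 0.013. The part of the cell cycle in the changes of the 10 genes was not tested.

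Levels were compared between the genes per kb of exon (CPM divided by the length of the union of annotated exons). In DMSO, MDC1 was the highest with 12.3 ± 3.10 CPM per kb (SD, n = 2), followed by TOPBP1 with 11.3 ± 1.87 and CHEK1 with 9.86 ± 2.87, and these 3 did not differ beyond their spread. CLSPN came next with 7.58 ± 1.24. The other 6 genes lay between 1.63 and 3.36 CPM per kb. In doxorubicin, CLSPN was the lowest of the 10 with 0.722 ± 0.353 CPM per kb (SD, n = 3), and MDC1 remained the highest with 4.59 ± 0.172. The ranks of ATM and ATR depended on the length used. With the exon length of the MANE Select transcript in place of the union, a choice made after the data were seen, the same 4 genes were the highest in DMSO and CLSPN was again the lowest in doxorubicin. However, the order in doxorubicin was then headed by ATM with 5.82 and ATR with 5.34 CPM per kb, before MDC1 with 5.02.

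Next, the counts of partner genes were divided by each other within each library, a ratio that does not depend on library size or normalization. For TOPBP1 to ATR, the activator to the kinase, the ratio was 1.97 and 1.74 in DMSO and between 0.62 and 0.698 in doxorubicin. For MDC1 to ATM it was 1.59 and 0.96 in DMSO and between 0.433 and 0.495 in doxorubicin. Both ratios were thus lower in each doxorubicin library than in either DMSO library. The ratio of CLSPN to CHEK1, the kinase it serves, was 1.46 and 1.22 in DMSO, 0.333 and 0.49 at 0.2 μM and 0.209 at 0.34 μM.

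The ratio of CHEK1 to CHEK2 overlapped between the groups, with 4.09 and 5.17 in DMSO and between 3.78 and 5.04 in doxorubicin. HUS1 to RAD9A was 2.06 in both DMSO libraries and between 2.93 and 4.14 in doxorubicin. ATRIP to ATR was 0.288 and 0.318 in DMSO and between 0.217 and 0.252 in doxorubicin. In an exact two-sided permutation test over the libraries, 5 of the 6 ratios gave p = 0.2, which is the smallest p that 3 against 2 libraries allow (0.24 when adjusted over the 6 ratios), and CHEK1 to CHEK2 gave 0.8.

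Some of the 10 genes start next to another gene that is read in the opposite direction. CHEK2 and HSCB, a co-chaperone of iron-sulfur cluster assembly, start 198 bp apart. HSCB had 7.02 CPM in DMSO and 6.48 in doxorubicin (log2 fold change -0.12 ± 0.22 SE, edgeR, adjusted p = 0.768), while CHEK2 fell. The ratio of CHEK2 to HSCB counts was 1.68 in both DMSO libraries and 0.794, 0.595 and 0.685 in doxorubicin. ATRIP and CCDC51, a mitochondrial membrane protein gene, start 85 bp apart. CCDC51 went from 169 and 298 counts in DMSO to 581, 737 and 1196 in doxorubicin without passing the threshold (log2 fold change 1.66 ± 0.31 SE, edgeR, adjusted p = 0.0187). The ratio of ATRIP to CCDC51 was 1.66 and 1.45 in DMSO and between 0.286 and 0.404 in doxorubicin.

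A stretch of 200 bases at the start of CHEK2 on the side of HSCB (chr22:28741821-28742020, minus strand) is shown because CHEK2 fell and HSCB overlapped between the groups. It precedes the start on which the RefSeq window is placed and includes the first bases of the annotated CHEK2 gene. Capitals mark the 3 CCAAT boxes, which are read on the opposite strand.
CHEK2: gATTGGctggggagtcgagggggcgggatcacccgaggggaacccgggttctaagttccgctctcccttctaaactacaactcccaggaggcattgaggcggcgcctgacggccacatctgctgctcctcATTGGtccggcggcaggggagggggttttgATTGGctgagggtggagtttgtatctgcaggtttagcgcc

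ATM and NPAT, a coactivator of histone genes, start 429 bp apart. NPAT had a log2 fold change of -0.72 ± 0.19 (SE; edgeR, adjusted p = 0.0564), and the ratio of ATM to NPAT was 2.42 and 2.27 in DMSO and between 3.65 and 4.06 in doxorubicin. In these 3 pairs the ratios of the groups did not overlap, and the exact two-sided permutation p was 0.2 for each, the smallest that the design allows. TF, which starts 57 bp from TOPBP1, had at most 1 count in any library, and C11orf65 and ACRV1, which overlap ATM and CHEK1, had at most 11 and 16. The pairs were compared in this way after the data were seen. The plot of count ratios shows the partners and these pairs side by side.

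**Figure D2:**
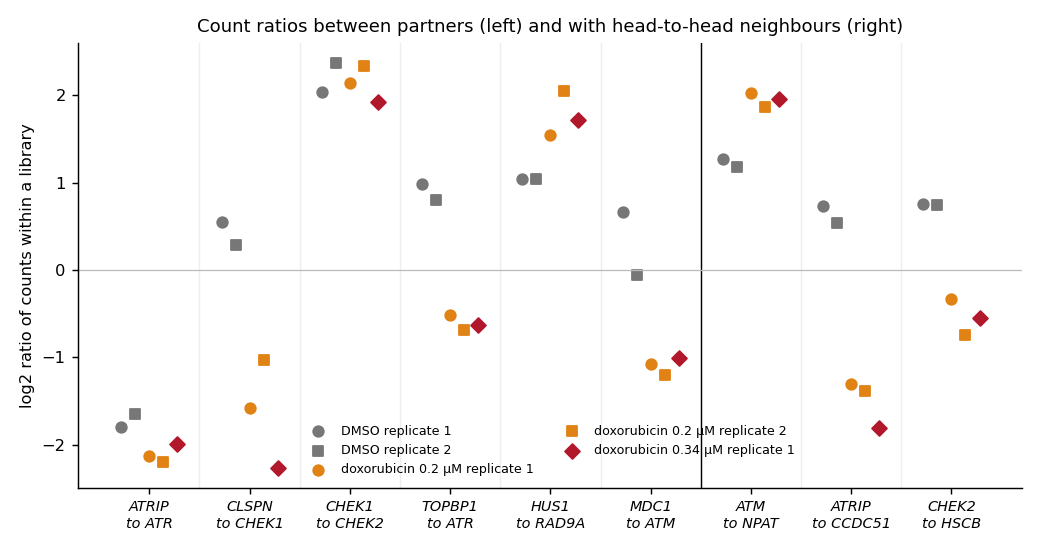
log2 ratio of the counts of a pair of genes within each library (y axis) for 6 pairs of partners (left of the line) and 3 pairs of genes that start within 1 kb of each other (right), with 1 point per library. CHEK1 to CHEK2 is the pair whose groups overlap, while TOPBP1 to ATR drops from ratios of 1.97 and 1.74 to between 0.62 and 0.698.

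The genes with the most similar pattern over the 5 libraries were found by the root-mean-square difference of log2 CPM centred on each gene's mean. The measure includes the doxorubicin change itself, and a shared function or regulation of near genes was not tested. For CLSPN these were NEIL3, a DNA glycosylase gene, with 0.0775, PLK4, a kinase of centriole duplication, with 0.143 and MCM10, a replication factor, with 0.168. Their log2 fold changes were -3.42, -3.36 and -3.33. For TOPBP1 they were SLF1 (0.0632), CBX5 (0.0674) and KIAA1549L (0.0719), and for CHEK1 they were LRP8 (0.0599), POPDC3 (0.0602) and NSMCE4A (0.0641). Within the 10 genes, CHEK1 and TOPBP1 were the closest pair (0.124), followed by ATM and ATR (0.133).

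Other genes of the checkpoint pathway were examined in 4 lists. For comparison, 2.73% of all genes tested fell and 1.29% rose. Among 9 genes of break sensing and chromatin, 2 fell and 0 rose, and the median log2 fold change was -0.79. H2AFX, which codes for the histone variant H2AX that MDC1 binds, had 193 ± 49.8 CPM in DMSO (SD, n = 2) and fell to 32.8 ± 2.54 in doxorubicin (SD, n = 3), a log2 fold change of -2.56 ± 0.19 (SE; edgeR, adjusted p = 0.000972). BRCA1, a ubiquitin ligase subunit of homologous recombination, fell with a log2 fold change of -2.40. NBN and MRE11A, which form the complex that brings ATM to breaks together with RAD50, had log2 fold changes of -1.10 and -0.98 and adjusted p-values of 0.0171 and 0.0219 from edgeR. RAD50 overlapped between the groups (log2 fold change -0.16, edgeR, adjusted p = 0.67).

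Among 13 genes of the clamp, its loaders and the fork, 5 fell and 0 rose, with a median log2 fold change of -1.54. RFC2 and RFC4, subunits of the clamp loader, fell with log2 fold changes of -2.08 and -1.97. TIMELESS, a fork protection protein that works with CLSPN, fell by 1.88 on the log2 scale. RPA2, a subunit of the protein that coats single-stranded DNA, and RHNO1, which binds the clamp and TOPBP1, fell with log2 fold changes of -1.54 and -1.07. RFC3 and RFC5 did not pass the threshold, with log2 fold changes of -1.94 and -1.69.

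Among 9 targets and brakes of the checkpoint, 3 fell and 2 rose, and the median log2 fold change was -1.64. CDC25C and CDC25B, phosphatases that activate CDK1 and are inhibited by the checkpoint kinases, fell with log2 fold changes of -3.82 and -2.13. WEE1, which inhibits CDK1, fell by 1.64 on the log2 scale. CDKN1A, an inhibitor of cyclin-dependent kinases, and MDM2, a ubiquitin ligase, were the members that rose, with log2 fold changes of 3.39 and 2.19. CDC25A and PKMYT1 had log2 fold changes of -2.89 and -1.91 without passing the threshold. PPM1D, a phosphatase that reverses checkpoint phosphorylation, was at 1.26 on the log2 scale (edgeR, adjusted p = 0.0113) and was named after its value was seen.

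Among 7 kinases related to ATM and ATR and the proteins that mature them, 0 passed the threshold in edgeR and the median log2 fold change was -0.22. The largest values were those of PRKDC, the kinase of end joining, with -0.81 (adjusted p = 0.0472 from edgeR), and of TTI1, with -0.52. Of all genes tested 4.02% passed the threshold, and this share fell whenever a library was left out. Without 1 of the doxorubicin libraries it was between 1.28% and 1.48%. In all, 12 of these 38 genes passed the threshold. Without DMSO replicate 2 this number was 1, without either 0.2 μM library or the 0.34 μM library it was 6, and without DMSO replicate 1 it was 10.

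**Figure D3:**
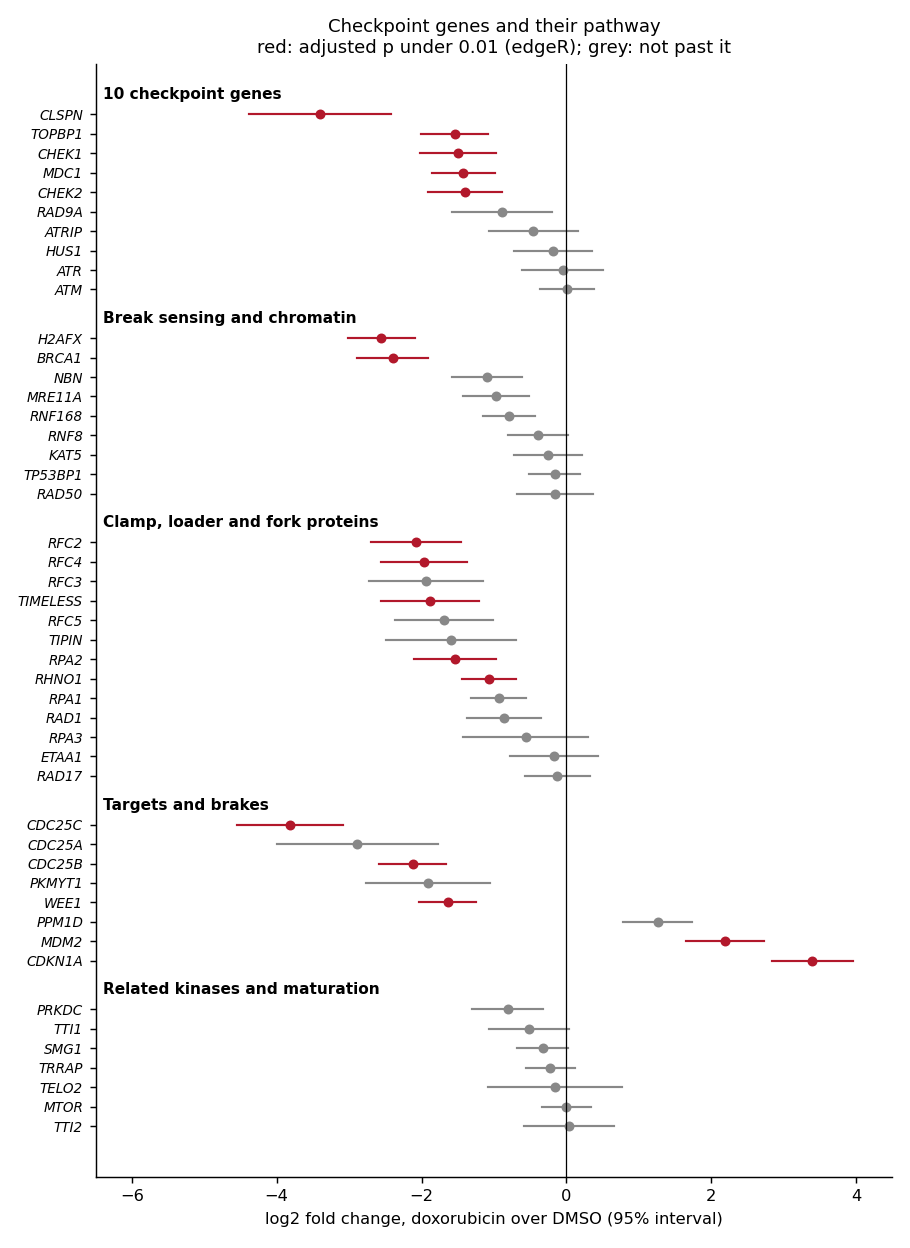
log2 fold change of doxorubicin over DMSO (x axis) with its 95% interval from edgeR for the 10 checkpoint genes and the other genes of the pathway in 4 lists that are reported here, ordered by value within a list. Red marks an adjusted p under 0.01: CLSPN stands apart at -3.40 among the 10 genes, and CDKN1A and MDM2 are the genes marked red on the right.

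Finally, the doses were compared. Between 0.34 μM and 0.2 μM, 0 of the 10 genes and 0% of all genes tested passed the threshold in edgeR, with 22 genes at an unadjusted p under 0.05. DESeq2 and limma voom also called 0 genes. All 10 genes had a log2 difference below 0 (0.34 μM minus 0.2 μM), as did 53.1% of all genes tested. Some of these signs turned when a library was left out. Without replicate 1 of 0.2 μM, CHEK2 was at 0.12 and RAD9A at 0.25, and without replicate 2, ATRIP was at 0.056 and MDC1 at 0.0046. CLSPN had 3.50 CPM at 0.34 μM, less than in either 0.2 μM library. Its difference was -1.30 on the log2 scale with a 95% interval from -2.19 to -0.42 and an adjusted p of 1.00 from edgeR. With replicate 2 of 0.2 μM left out this difference was -0.996, and with replicate 1 left out it was -1.52. The next largest difference was that of TOPBP1, with -0.34 and an interval from -1.04 to 0.37. For CHEK2 it was -0.0069, with an interval from -0.95 to 0.94, which includes changes by nearly a factor of 2 in both directions. The 0.34 μM library has no replicate and is assumed to vary like the replicated conditions. The G1/S and G2 and mitosis lists were lower at 0.34 μM too, by medians of 0.44 and 0.52 on the log2 scale. The same median was -0.15 over the 10 genes and -0.0081 over all genes tested. The part of the G1/S and G2 and mitosis lists in the difference of CLSPN was not tested.

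**Figure D4:**
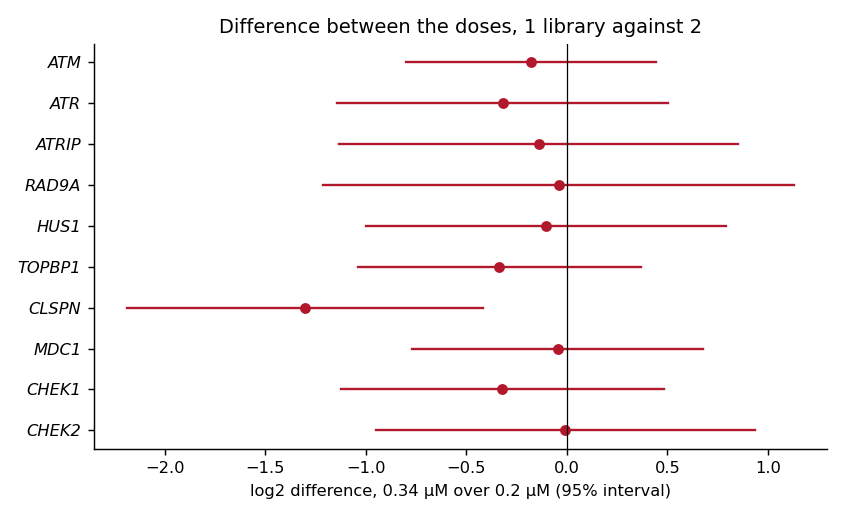
log2 of the level at 0.34 μM over that at 0.2 μM doxorubicin (x axis) with its 95% interval from edgeR for each of the 10 genes. The interval of CLSPN, from -2.19 to -0.42, is the one that lies below 0, and the other 9 intervals include 0.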

How the data were processed

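The authors selected poly-A RNA, mapped 75 bp paired-end reads to hg38 with STAR and deposited a table of unnormalized counts for each gene, obtained by featureCounts from Rsubread on the annotation of iGenomes. Not given in the sources used here are tool versions, the strand setting and how reads with several positions were handled. A second deposited table holds the authors' own DESeq2 comparison (mean counts, fold changes, p-values) and was not used.

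For this work edgeR 4.0.16 under R 4.3.3 was applied (TMM; filterByExpr, smallest count 10, smallest total 15), which kept 14187 of 26485 genes. The quasi-likelihood test compared 3 doxorubicin with 2 DMSO libraries, without covariates, at a Benjamini-Hochberg adjusted p of 0.01 over all genes tested. Standard errors (SE) follow from the fold change and its F statistic. The doses were compared in a fit of 3 conditions. The alternatives were DESeq2 1.42.0, limma 3.58.1 (voom), other scalings, filters, thresholds and dose groups, a replicate block and leaving out each library. The test was tested on simulated data. Libraries of a condition differed by far more than sampling noise (chi-square per degree of freedom 117 and 75.3). They are called biological replicates in the methods. Exon lengths came from GENCODE v44 lifted to GRCh37, positions and promoters from RefSeq.

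The 10 genes, the lists and the tests were chosen with earlier results of these data known. Proteins were not analysed here. A gene in the list of targets and brakes is counted there but not reported by name. The text names all 10 genes, the genes of each pathway list past the threshold and the 2 largest changes below it. RAD50, PPM1D and PCNA are named in addition to this rule. Also named are the genes of the count table that overlap a member or start within 1 kb of it. The 3 nearest patterns of the 3 members that changed most are named too. Annotated neighbours without a row in the count table are not all named.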

Additional observations from a re-analysis of the deposited data

How the results depend on the processing

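Of the 10 genes, 5 fell in the reported fit. This number was 3 with library size alone, 1 for 0.2 μM and 1 for 0.34 μM against DMSO in the fit of 3 conditions (CLSPN in both), and 0 to 1 when single libraries were left out. It was 5 with DESeq2, RLE size factors, no filter or a threshold of 0.05, and 4 with limma voom. The number of all genes called, 571, was 2026 with DESeq2 (1110 lower), 1020 without the filter, 1927 at an adjusted p of 0.05, 171 for 0.2 μM, 89 for 0.34 μM and 49 to 215 when single libraries were left out. The pathway genes called, 12, became 24 with DESeq2, 19 without the filter, 24 at 0.05, 6 for 0.2 μM, 1 for 0.34 μM and 1 to 10 when single libraries were left out. With a replicate block, 5 of the 10 genes, 1546 of all genes and 23 pathway genes were called. The numbers are not known to pair the libraries, since the first library of each condition carries none in the labels, although libraries of the same number deviated from their group means together (r = 0.528 across genes). Values near 0 changed sign. ATM was at -0.0083 with DESeq2, -0.00011 with limma voom, -0.0050 with RLE, -0.028 with library size alone, -0.12 for 0.34 μM and between -0.10 and 0.089 when single libraries were left out. ATR was at 0.047 for 0.2 μM, 0.036 with the replicate block and between -0.30 and 0.21 in those fits, and HUS1 was between -0.45 and 0.13. Between the doses, CHEK2 was also above 0 without the filter (0.013). The cause of these changes was not tested. The median log2 fold change of all genes, 0.013, was 0.138 with DESeq2 and 0.154 without the filter. With 2 DMSO libraries, the interval of ATRIP was too wide to tell no change from a fall.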

Other observations

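RAD9B and HUS1B, the paralogues of the clamp subunits RAD9A and HUS1, were measured at low levels and were named after their values were seen. RAD9B had 31 and 33 counts in DMSO, 17 and 16 at 0.2 μM and 16 at 0.34 μM doxorubicin, which gave no call (log2 fold change -1.08 ± 0.39 SE, adjusted p = 0.119 by edgeR's quasi-likelihood test). HUS1B had 2 counts in each DMSO library and 6, 3 and 8 counts in the doxorubicin libraries, too few to pass the filter on low counts.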
